A study of Rattus norvegicus with 26 samples.

Results

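To estimate the common effect of mesenchymal stem cells from human umbilical cord (hUC-MSCs) on the injured rat spinal cord, all 10 libraries of rats that received the cells (+MSC) were compared with all 9 libraries of rats that received vehicle (+PBS). These are 19 of the 26 RNA sequencing libraries of the series, selected by their labels alone. One model with the week as a covariate gave each gene a single treatment effect. The +MSC group held 3, 3 and 4 libraries and the +PBS group 3, 2 and 4 libraries at week 1, week 2 and week 4 after transplantation (wpt, weeks post-transplantation). The other 7 libraries, 4 of intact or sham rats (Intact) and 3 of injured rats at the time of transplantation (sub-SCI), served as reference levels.

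The animals were adult female Sprague-Dawley rats, wild type, at postnatal day 70 and 250 g. In the injured rats an aneurysm clip of 60 g compressed the cord at T10 for 1 min, and 7 days later cells or PBS were injected intrathecally. The cells were human and the hosts rats, and cyclosporin A was given every day over the whole period against rejection. The tissue was a segment of 5 mm centered on the lesion, so each library mixes all cell types of the epicenter. Poly(A) RNA was sequenced, and reads that mapped to the human genome had been removed before the rat genes were counted.

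Compression of the cord kills neurons and oligodendrocytes at the epicenter within days. Blood-derived macrophages and resident microglia then clear myelin debris, astrocytes become hypertrophic around the lesion, and fibroblasts deposit collagen in its core. Mesenchymal stem cells are studied in this setting for the factors they secrete. Inhibition by GABA and glycine depends on chloride extrusion by KCC2, the product of Slc12a5, which falls in spinal neurons after injury.

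Total counts per library lay between 19662677 and 43468509 in +MSC and between 21327390 and 32946100 in +PBS. Mitochondrial genes took 4.35% to 6.78% of the counts in +MSC and 3.58% to 5.30% in +PBS, so this share was higher in +MSC by the medians, 5.17% against 4.44%. One library stood apart. In +PBS-4w replicate 1, genes with exon lengths over 6000 bases were lower than in the other 3 libraries of its group, with a median log2 difference of -0.70, and genes under 1000 bases were higher, with a median of 0.41. The gap between those medians was -1.11 in this library and lay between -0.33 and 0.45 in the other 18. What produced it was not tested, and the counts over all genes and over the gene lists are given below with and without that library. +PBS-2w replicate 2 and +PBS-4w replicate 1 were the +PBS libraries nearest Intact in neuron markers. The closest pair of libraries within a group was +MSC-2w replicates 2 and 3, which still differed by more than sampling noise. The labels, followed here, and the study's methods text disagree on which week 2 group was the smaller, +PBS-2w by the labels and +MSC-2w by the methods. The study's results text counts 3 +MSC-2w samples, as the labels do, and describes 1 +PBS-2w sample as an outlier that clustered with them. The DEGs numbered 190 higher and 6 lower without week 2, and 320 higher and 82 lower with those closest libraries summed.

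Of 17722 genes tested, 2022 (11.4%) were higher and 2104 (11.9%) were lower in +MSC at an adjusted p under 0.05, and such genes are termed called. The differences were mostly modest, with a median absolute log2 fold change of 0.69 among the genes called higher and 0.47 among those called lower. A total of 300 genes (1.69%) were higher and 156 (0.880%) lower by more than 1 on the log2 scale with adjusted p below 0.01, and these are termed DEGs. All 10 +MSC libraries lay above all 9 +PBS libraries in 144 genes (0.813%) and below them in 20 genes (0.113%). In bulk tissue, fewer cells of a type and less RNA per cell cannot be told apart, and this holds for every gene described here. Leaving out +PBS-4w replicate 1 raised the DEGs to 598 higher and 334 lower, which included 276 of the 300 and 155 of the 156.

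Exon length moved with the direction of the calls in the full set of libraries. Among genes over 6000 bases 20% were called higher and 7.45% lower, while among genes under 1000 bases 5.63% were called higher and 7.89% lower. Without +PBS-4w replicate 1 the shares among the longest genes were 22.0% higher and 20% lower, and the median log2 fold change of those genes was -0.04 instead of 0.03.

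Channel and synaptic genes were among the leading higher genes. Scn1a, a pore-forming sodium channel subunit of fast-firing neurons, ranged from 24.1 to 86.9 CPM (counts scaled to a common library size) in +PBS, with a median of 30.0, and from 85.6 to 158 CPM in +MSC, with a median of 105. The ranges met only through +PBS-2w replicate 2, at 86.9 CPM. Its log2 fold change was 1.53 ± 0.17 (SE, adjusted p = 0.00013), and it was 1.53 again without +PBS-4w replicate 1. Syt2, the calcium sensor of fast transmitter release, lay at 28.1 to 111 CPM (median 46.5) in +PBS and at 109 to 253 CPM (median 154) in +MSC. The log2 fold change of Syt2 was 1.56 ± 0.19 (adjusted p = 0.00021). Neither gene reached the Intact mean, which was 286 CPM for Scn1a and 383 CPM for Syt2, and both were above the sub-SCI means of 13.7 and 17.6 CPM.

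The 10 higher DEGs with the smallest adjusted p also held Cacng2, which encodes an AMPA receptor auxiliary subunit also named a calcium channel subunit. Its level was 7.01 to 23.2 CPM (median 10.2) in +PBS and 22.8 to 49.9 CPM (median 30.4) in +MSC, a log2 fold change of 1.51 ± 0.18. Ank1, an ankyrin that ties membrane proteins to the spectrin skeleton, lay at 30.0 to 66.1 CPM in +PBS and at 66.2 to 138 CPM in +MSC, with no overlap. Ndst4, a heparan sulfate sulfotransferase, also separated the groups, at 0.596 to 2.03 CPM in +PBS against 2.19 to 4.64 CPM in +MSC. The others were Rimkla, Pcyt1b, Vstm2a, Mest and the unnamed gene AABR07007916.1, with log2 fold changes between 1.02 and 1.69. The smallest adjusted p of all genes, 5.63e-05, belonged to Kcna2, a potassium channel of axons, whose log2 fold change of 0.87 ± 0.08 was under the DEG limit.

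**Figure D1:**
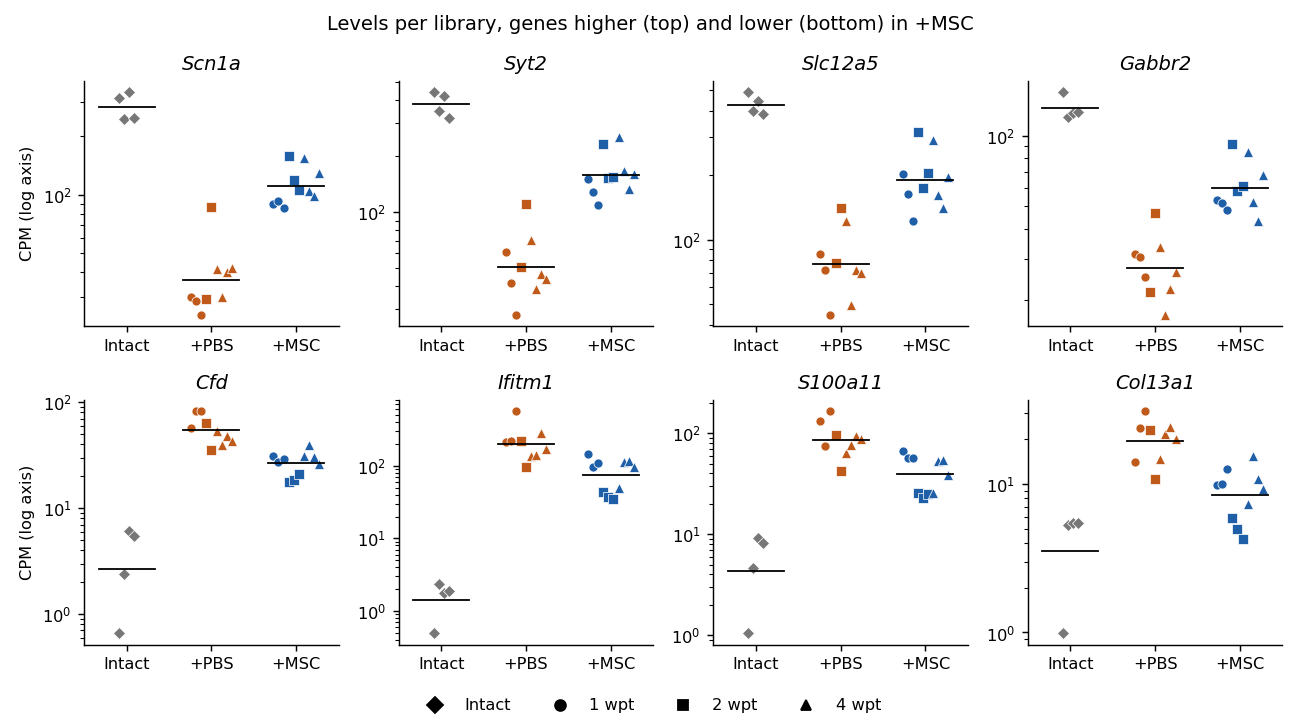
CPM in each library (log scale) of 4 genes higher in +MSC (Scn1a, Syt2, Slc12a5, Gabbr2) and 4 genes lower in +MSC (Cfd, Ifitm1, S100a11, Col13a1), for Intact, +PBS and +MSC, with a marker shape per week and a line at the geometric mean. The +MSC libraries lie between +PBS and Intact in all 8 genes by that mean, and Scn1a of +PBS-2w replicate 2, at 86.9 CPM, sits among the +MSC libraries.

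The leading lower genes included genes of complement, interferon response and extracellular matrix. None of the 12 genes in the interferon-stimulated list described below was called. Cfd, complement factor D, ranged from 35.7 to 83.2 CPM (median 53.8) in +PBS and from 17.6 to 39.2 CPM (median 28.2) in +MSC, with an Intact mean of 3.65 CPM. Its log2 fold change was -1.02 ± 0.15 (adjusted p = 0.00037). Ifitm1, an interferon-induced membrane protein, lay at 97.4 to 573 CPM (median 212) in +PBS and at 34.7 to 147 CPM (median 95.7) in +MSC. It had the lowest fold change of the 10 leading lower DEGs, -1.42 ± 0.24 (adjusted p = 0.00095). S100a11, a calcium-binding protein of many non-neuronal cells, ranged from 42.1 to 167 CPM in +PBS and from 23.0 to 66.9 CPM in +MSC. In all 3 genes most +MSC libraries lay below most +PBS libraries and the ranges overlapped.

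Col13a1, a transmembrane collagen, had medians of 21.5 CPM in +PBS and 9.51 CPM in +MSC (log2 fold change -1.18 ± 0.19). Htr2b, a serotonin receptor, had medians of 12.9 and 6.23 CPM (-1.17 ± 0.19), with -1.85, -0.84 and -0.84 at 1, 2 and 4 wpt. Htra3, a secreted serine protease, had medians of 158 and 55.0 CPM (-1.27 ± 0.21). The rest of the 10 were Ifitm2, Angptl8, Ecm1 and Emilin1, between -1.06 and -1.21. Ecm1 and Emilin1 are extracellular matrix proteins. Ninj1, an adhesion protein that also takes part in membrane rupture, was called lower at -0.65 ± 0.10 and was no DEG.

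Promoter sequence was examined because both sets of genes moved together. RefSeq promoters (assembly GRCr8, 250 bases before the start, both strands) were matched for 1401 of the 2022 genes called higher and 1553 of the 2104 called lower. The cyclic AMP response element TGACGTCA occurred in 3.21% of the former and 1.22% of the latter, against 2.59% of the promoters of genes tested and 1.68% of all 27457 promoters. The AP-1 letters TGANTCA occurred in 3.5% and 5.92%, against 4.84% of genes tested and 6.41% of all promoters. TTCAGCACC, the left part of the RE1 element bound by the neuronal repressor REST, occurred in 0.928% and 0.258%, against 0.413% and 0.317%. The PU.1 letters GAGGAAGT occurred in 1.71% and 2.51%, against 2.29% and 2.04%. Some of these shares rest on few promoters, 13 and 4 for the RE1 part. Among DEGs the PU.1 letters occurred in 0 of 182 promoters of higher genes and 1 of 107 of lower genes. These shares are descriptions with no test, and a match in letters is not a bound site. Windows of 60 bases around a match are shown for genes described in the text, 2 presynaptic genes that were higher and 3 genes of glia, macrophages and matrix that were lower, with the matched letters in capitals.
Syn1: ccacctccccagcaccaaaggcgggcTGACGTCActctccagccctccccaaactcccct
Vamp1: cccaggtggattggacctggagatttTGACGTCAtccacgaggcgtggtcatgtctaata
Emp1: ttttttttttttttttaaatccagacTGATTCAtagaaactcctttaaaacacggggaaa
Gpnmb: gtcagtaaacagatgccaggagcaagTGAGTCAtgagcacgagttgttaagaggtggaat
Ecm1: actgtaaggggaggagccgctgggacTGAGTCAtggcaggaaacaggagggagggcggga
In GRCr8 these windows are at chrX:3725529-3725588 on the plus strand for Syn1, chr4:159698797-159698856 on the plus strand for Vamp1 and chr4:169944116-169944175 on the plus strand for Emp1. Gpnmb is at chr4:79341015-79341074 on the plus strand and Ecm1 at chr2:185981656-185981715 on the minus strand. The cyclic AMP element begins 190 bases before the start of Syn1 and 71 bases before that of Vamp1, and the AP-1 letters begin 88, 87 and 83 bases before the starts of Emp1, Gpnmb and Ecm1.

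Gene lists by cell type and function were described by their counts of called genes and their median log2 fold change, beside a median of -0.03 and the shares of 11.4% called higher and 11.9% called lower over all genes tested. Those shares were 17.2% and 17.3% without +PBS-4w replicate 1, 5.11% and 4.66% without week 1, 6.47% and 4.06% without week 2, and 8.14% and 6.04% without week 4. A list with 1 or 2 called genes is mostly near these shares, and its count is then no result about the list. Of 15 neuron markers, 13 were called higher and none lower, with a median of 0.93 and 5 DEGs. Rbfox3, the gene of the neuronal nuclear antigen NeuN, lay at 6.24 to 20.9 CPM in +PBS and at 22.9 to 55.9 CPM in +MSC, with no overlap (log2 fold change 1.28 ± 0.21, adjusted p = 0.00065). Nefl, the light neurofilament, lay at 279 to 1745 CPM (median 615) in +PBS and at 1043 to 2758 CPM (median 1856) in +MSC. That is a log2 fold change of 1.26 ± 0.25. Map2, of dendritic microtubules, was higher by 0.87 ± 0.13. Elavl3 (0.57, adjusted p = 0.073) and Eno2 (0.83, adjusted p = 0.2) were not called in the full set, and all 15 were called without +PBS-4w replicate 1. Leaving out week 1 left 6 of the 15 called.

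The mean log2(CPM + 1) of the 15 neuron markers lay between 5.93 and 7.66 in +PBS (median 6.72) and between 7.36 and 8.38 in +MSC (median 7.79). Intact libraries lay above both, at 8.55 to 8.86, and sub-SCI libraries at 4.92 to 6.54. The 2 +PBS libraries nearest Intact overlapped the lowest +MSC libraries. Among 8 motor neuron and cholinergic genes 5 were called higher, with a median of 0.95. Chat, which makes acetylcholine, had medians of 18.2 CPM in +PBS and 37.5 CPM in +MSC (1.06 ± 0.23), and Slc5a7, the choline transporter, was higher by 1.14 ± 0.21. All 8 were called without +PBS-4w replicate 1, 2 without week 1 and 1 without week 4.

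**Figure D2:**
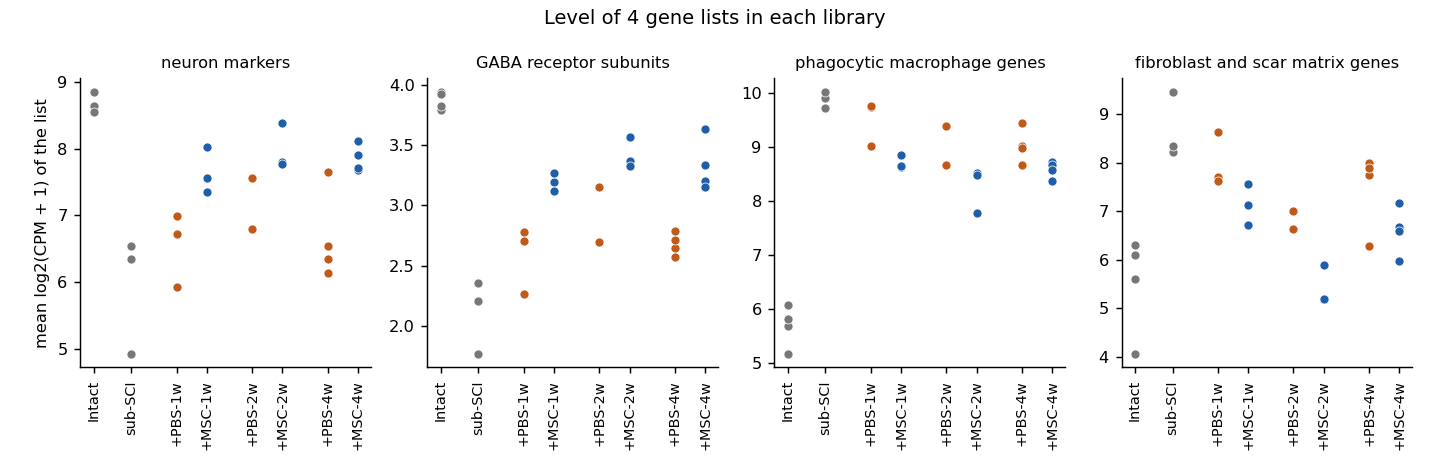
Mean log2(CPM + 1) in each library of neuron markers, GABA receptor subunits, phagocytic macrophage genes and fibroblast and scar matrix genes, for Intact, sub-SCI, +PBS and +MSC. Neuron markers range from 7.36 to 8.38 in +MSC and from 5.93 to 7.66 in +PBS, and fibroblast genes from 5.19 to 7.55 in +MSC and from 6.27 to 8.62 in +PBS.

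Genes of inhibitory transmission were called higher at several steps, from synthesis to receptor. Among 12 interneuron genes 7 were called higher, with a median of 0.93. They included Slc6a5, the glycine transporter of glycinergic terminals (1.38 ± 0.26), Slc32a1, which loads GABA and glycine into vesicles (1.19 ± 0.30), and the GABA-synthesizing enzymes Gad2 (1.07 ± 0.24) and Gad1 (0.85 ± 0.26). Slc17a6, the vesicular transporter of excitatory neurons, was higher by 1.02 ± 0.25. Pvalb (1.06, adjusted p = 0.057) and Sst (0.54, adjusted p = 0.26) were not called. The count was 11 without +PBS-4w replicate 1, 1 without week 1 and 3 without week 2.

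Of 20 GABA receptor subunits tested, 10 were called higher and none lower, with a median of 0.70. Gabbr2, a subunit of the metabotropic receptor, lay at 17.3 to 46.8 CPM (median 26.2) in +PBS and at 43.5 to 92.4 CPM (median 55.6) in +MSC. That is a log2 fold change of 1.08 ± 0.17 (adjusted p = 0.00061), and 1.13 without +PBS-4w replicate 1. The ranges overlapped slightly, and the Intact mean was 131 CPM.

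The other called subunits were of several kinds. Gabbr1, the partner of Gabbr2, was higher by 0.47 ± 0.10. The alpha subunits Gabra3 and Gabra5 were higher by 1.04 ± 0.20 and 1.23 ± 0.29, and Gabra4 and Gabra2 by 0.70 each. Gabrb2 was higher by 1.30 ± 0.33, but its value of 0.0745 CPM in +PBS-4w replicate 1 was far under the range of 1.24 to 3.09 CPM in the other +PBS libraries. Without that library it was higher by 1.13. Gabra5 and Gabrb2 lost their calls when week 1 was left out. The count over the list was 14 without +PBS-4w replicate 1, and subunits found mainly outside the cord, such as Gabrp (0.02) and Gabre (0.34), were not called.

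Among 5 cation-chloride cotransporter and kinase genes 2 were called higher. Slc12a5 lay at 44.5 to 140.2 CPM (median 72.1) in +PBS and at 122 to 318 CPM (median 186) in +MSC, against an Intact mean of 429 CPM. Its log2 fold change was 1.24 ± 0.20 (adjusted p = 0.00065), at 1.24, 1.08 and 1.33 in weeks 1, 2 and 4. Slc12a2, the chloride importer NKCC1, lay at 259.6 to 429 CPM in +PBS and 317 to 427 CPM in +MSC and was not called (0.11 ± 0.09, adjusted p = 0.42). Stk39, a kinase that acts on both transporters, was called higher by 0.39 ± 0.09. Whether Slc12a5 and Slc12a2 differed in their response was not tested.

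Of 5 glycine receptor genes 4 were called higher. Glra1, the main adult alpha subunit, lay at 9.89 to 43.0 CPM in +PBS and at 44.1 to 75.6 CPM in +MSC, with no overlap (1.53 ± 0.19, adjusted p = 0.00021). Glra2 also separated the groups (1.25 ± 0.19). Glrb and the scaffold gephyrin, Gphn, were higher by 0.62 ± 0.16 and 0.35 ± 0.10. All 5 were called without +PBS-4w replicate 1 and 2 without week 1.

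Excitatory receptors, channels and vesicle genes were higher as well. Among 15 ionotropic glutamate receptor subunits 12 were called higher, with a median of 0.67, led in fold by Grin2a (1.36 ± 0.33) and Grin2b (1.05 ± 0.19) of the NMDA receptor. The count was 6 when week 4 was left out. Among 25 sodium and calcium channel subunits 22 were called higher and 1, Cacnb3, lower (-0.39 ± 0.11), with a median of 0.79, and 14 were called higher without week 4. Among 15 potassium channel subunits 13 were called higher, with a median of 0.78, and Kcnab2, Kcnh1, Kcnq5 and Kcna1 were among those that separated the groups without overlap. Without week 1 the count was 8. Kcnab2, an auxiliary subunit, had medians of 45.5 CPM in +PBS and 114 CPM in +MSC (1.19 ± 0.17).

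Of 17 presynaptic vesicle genes 15 were called higher, with a median of 1.02. The active zone scaffolds Rims1 and Bsn were higher by 1.31 ± 0.19 and 1.04 ± 0.16. Syn1, which tethers synaptic vesicles and whose promoter window is printed above, lay at 43.0 to 132 CPM in +PBS and at 122 to 211 CPM in +MSC (1.02 ± 0.18, adjusted p = 0.0011). Vamp1, a vesicle fusion protein, lay at 207 to 1009 CPM in +PBS and at 586 to 1370.5 CPM in +MSC (1.14 ± 0.25, adjusted p = 0.004). Vamp2 (0.23, adjusted p = 0.1) and Stx1a (0.23, adjusted p = 0.33) were not called. Of 9 immediate early genes, Arc was called higher (0.75 ± 0.25), Junb (-0.53 ± 0.14) and Ier2 (-0.36 ± 0.11) lower, and Fos had a log2 fold change of 0.04. Arc lost its call in 14 of 35 alternatives and Ier2 in 11. The counted Ier2 entry is annotated as a pseudogene.

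Genes of perineuronal nets, the matrix around fast-firing neurons, were among those called. Acan, the aggrecan core protein, lay at 2.95 to 8.72 CPM in +PBS and at 9.17 to 19.2 CPM in +MSC without overlap, at log2 fold changes of 1.17, 1.18 and 1.19 in the 3 weeks. The link proteins Hapln4 and Hapln1 were higher by 1.32 ± 0.25 and 1.34 ± 0.30. The other chondroitin sulfate proteoglycan genes tested, Vcan, Ncan and Bcan among them, were not called, so 3 of 13 genes of this list passed, and 5 without +PBS-4w replicate 1.

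Neurotrophic factors were mostly not called. Of 17 factors and receptors 2 were called higher, among them Ret, the GDNF family receptor (0.55 ± 0.15), and Hgf was called lower (-0.42 ± 0.14). Hgf lost its call in 15 of 35 alternatives, and counts this low are near the share of all genes. Without +PBS-4w replicate 1 the count was 2 higher and 4 lower. Bdnf lay at 1.15 to 4.62 CPM (median 2.05) in +PBS and at 1.23 to 7.00 CPM (median 2.82) in +MSC and was not called (0.58 ± 0.30, adjusted p = 0.18). It gained a call in 3 of 35 alternatives. Its log2 fold change was 0.93, -0.58 and 1.04 in weeks 1, 2 and 4, and the highest +PBS value came from +PBS-2w replicate 2. These are rat transcripts, and human BDNF transcripts could not be seen after the removal of human reads.

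Most phagocytic macrophage genes tested were called lower. Of 16 phagocytic macrophage genes 12 were called lower and none higher, with a median of -0.68. Lyz2, lysozyme, lay at 1333 to 2976 CPM (median 1964) in +PBS and at 329.7 to 1541 CPM (median 908) in +MSC (-1.03 ± 0.21, adjusted p = 0.0026). Cd68, a lysosomal protein of macrophages, lay at 218 to 655 CPM in +PBS and at 104 to 276 CPM in +MSC (-0.81 ± 0.20). Ctsl, a lysosomal protease, had a small and precise difference of -0.65 ± 0.08 (adjusted p = 0.00019). Gpnmb, a marker of lipid-laden phagocytes whose promoter window is printed above, had medians of 3291 CPM in +PBS and 2234 CPM in +MSC (-0.78 ± 0.20, adjusted p = 0.012).

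The same list held Msr1 (-1.07 ± 0.21) and Mrc1 (-1.10 ± 0.24), scavenger and mannose receptors, and Apoe, which carries lipid out of cells (-0.70 ± 0.15). Spp1, Fabp5, Lgals3 and Adgre1 were not called, at -0.64 to -0.15. The count was 6 without week 1 and 6 without week 2. Of 10 homeostatic microglia genes 1, Trem2, was called lower (-0.60 ± 0.17), a share near that of all genes, while P2ry12 (0.23, adjusted p = 0.29), Tmem119 (0.10, adjusted p = 0.64) and Cx3cr1 (-0.01, adjusted p = 0.97) were not called.

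Of 12 complement genes 7 were called lower, among them C5ar1 (-0.87 ± 0.20) and Serping1 (-0.67 ± 0.15), and C3 was not called (0.18, adjusted p = 0.74). C5ar1 had weekly values of -1.44, -1.36 and -0.12, the last of them near 0, with an interaction adjusted p of 1 (unadjusted p = 0.00092). This count was unsteady, at 1 without week 1, 0 without week 2, 3 without +PBS-2w replicate 1 and 4 without any 1 of +MSC-1w replicate 1 or 2, +PBS-1w replicate 1, +MSC-2w replicate 1 or +MSC-4w replicate 3. Of 16 cytokines and chemokines 5 were called lower, Tgfb1 (-0.49 ± 0.09), Il18, Cxcl16, Ccl3 and Cxcl1. That count was 3 without +PBS-2w replicate 1 and 2 without week 1. Il1b (-0.48, adjusted p = 0.47) and Cxcl10 (0.03, adjusted p = 0.94) were not called.

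None of 9 genes of MHC class II antigen presentation, 8 neutrophil genes or 12 interferon-stimulated genes was called. Their medians were -0.18, -0.01 and -0.30. The neutrophil median went from 0.60 at 1 wpt to -2.20 at 2 wpt and 0.99 at 4 wpt, at levels of a few CPM for most genes. At an unadjusted p under 0.05 in edgeR 1, 0 and 2 of them passed, and DESeq2 called 0, 0 and 2. Of 14 lymphocyte genes, Cd8a (-1.07 ± 0.31) and Cd8b (-0.60 ± 0.18) were called lower, while Cd3e (-0.51, adjusted p = 0.41) was not. Both differences were largest at 1 wpt, with -2.23, -0.89 and -0.32 for Cd8a at 1, 2 and 4 wpt. Those of Cd8b were -0.97, -0.49 and -0.39. Mean Cd8a was 94.6 CPM in +PBS and 20.5 CPM in +MSC at 1 wpt, and 15.1 and 12.1 CPM at 4 wpt. The lymphocyte count was 0 without week 1, 0 without week 2 and 2 without week 4. CD8 is also carried by macrophages in the rat.

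The genes of the fibrotic scar had the list median farthest from 0 of the 39 lists, -1.14. Of 17 fibroblast and scar matrix genes 14 were called lower, 8 of them DEGs. Col1a1, the main chain of type I collagen, lay at 298 to 2905 CPM (median 1097) in +PBS and at 113 to 894 CPM (median 411) in +MSC (-1.28 ± 0.28, adjusted p = 0.0044). Col3a1 lay at 339 to 3172 CPM (median 1223) in +PBS and at 69.0 to 1096 CPM (median 435) in +MSC (-1.48 ± 0.35). The ranges overlapped in both genes, and the spread within +PBS reached an order of magnitude.

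Lox, which crosslinks collagen (-1.36 ± 0.34), Fbn1 of microfibrils (-1.33 ± 0.29) and Pdgfrb, a receptor of fibroblasts and pericytes (-0.91 ± 0.19), were called lower too. Sparc, Acta2 and Tagln were not called, at -0.21, -0.43 and -0.30. The list's count lay between 13 and 15 when any 1 library was left out, and was 9 without week 1 and 3 without week 2. Schwann cells can enter the segment with nerve roots. The summed level of their 8 markers was 350.2 to 3421 CPM (median 1505) in +PBS and 265 to 1934 CPM (median 1098) in +MSC, and the ranges overlapped widely. Egr2 was the 1 of 8 called lower (-0.87 ± 0.30), a share near that of all genes, and it lost its call in 21 of 35 alternatives. By the mean log2(CPM + 1) of these markers the +MSC-1w libraries, at 5.83, 5.33 and 4.95, were above 2 of the 3 +PBS-1w libraries, at 4.15, 4.40 and 6.43. At 2 wpt the +MSC libraries were at 5.38, 3.98 and 3.94 and the +PBS libraries at 5.10 and 5.49. At 4 wpt they were at 4.02, 5.51, 5.86 and 5.16 in +MSC and at 5.61, 6.50, 6.23 and 5.92 in +PBS. The list median was -0.68 with weeks pooled, and -0.05, -0.82 and -1.02 at 1, 2 and 4 wpt. The part of Schwann cell or nerve root content in the matrix result was not tested.

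Of 14 metalloproteinases and inhibitors 6 were called lower, Timp1 (-0.53 ± 0.11), Mmp14 (-0.80 ± 0.18), Mmp2 (-0.86 ± 0.20), Mmp19, Timp2 and Timp3, and each week left out lowered the count to 3. Without +PBS-4w replicate 1 it was 8. In the endothelial list Cdh5, the junction cadherin, was a DEG (-1.20 ± 0.27) and Tie1 was called lower (-0.47 ± 0.12), while Kdr (-0.33) and Flt1 (0.19) were not called. The endothelial count was 4 without +PBS-4w replicate 1. None of 7 pericyte and smooth muscle genes was called by edgeR or DESeq2, and 1 had an unadjusted p under 0.05.

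Astrocyte genes went both ways. Of 13 reactive astrocyte genes 6 were called lower. Vim, an intermediate filament of reactive astrocytes and of mesenchymal cells, had medians of 2729 CPM in +PBS and 1668 CPM in +MSC (-0.73 ± 0.12, adjusted p = 0.00086). Emp1, a membrane protein of reactive astrocytes and epithelium, had medians of 149 and 72.0 CPM (-1.30 ± 0.25). Gfap, the defining astrocyte filament, lay at 4019 to 15219 CPM in +PBS and 8947 to 16145 CPM in +MSC and was not called (0.07 ± 0.17, adjusted p = 0.82). The count was 3 without week 2 and also 3 without +PBS-2w replicate 1.

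Of 11 genes of astrocyte homeostasis 3 were called higher, the glutamate transporters Slc1a3 (0.46 ± 0.10) and Slc1a2 (0.77 ± 0.23) and the potassium channel Kcnj10 (0.69 ± 0.17). Slc1a2 lay at 21.4 to 107 CPM in +PBS and at 105 to 169 CPM in +MSC. Aqp4, the water channel of astrocyte endfeet, and Gja1 were not called, at 0.35 and 0.04. The count was 5 without +PBS-4w replicate 1 and 1 without week 4.

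Myelin genes were mostly not called. Ermn alone of 13 was called higher (0.50 ± 0.15), and Mbp, the myelin basic protein, was 0.32 ± 0.16 (adjusted p = 0.17) with medians of 11704 CPM in +PBS and 16056 CPM in +MSC. Without +PBS-4w replicate 1 the count was 3. Of 9 genes of oligodendrocyte precursors, Bmp4 (-1.02 ± 0.19, a DEG) and Pdgfra (-0.82 ± 0.19) were lower, and both are expressed by other cells as well. Gpr17 of differentiating precursors was at 0.00 (adjusted p = 1).

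**Figure D3:**
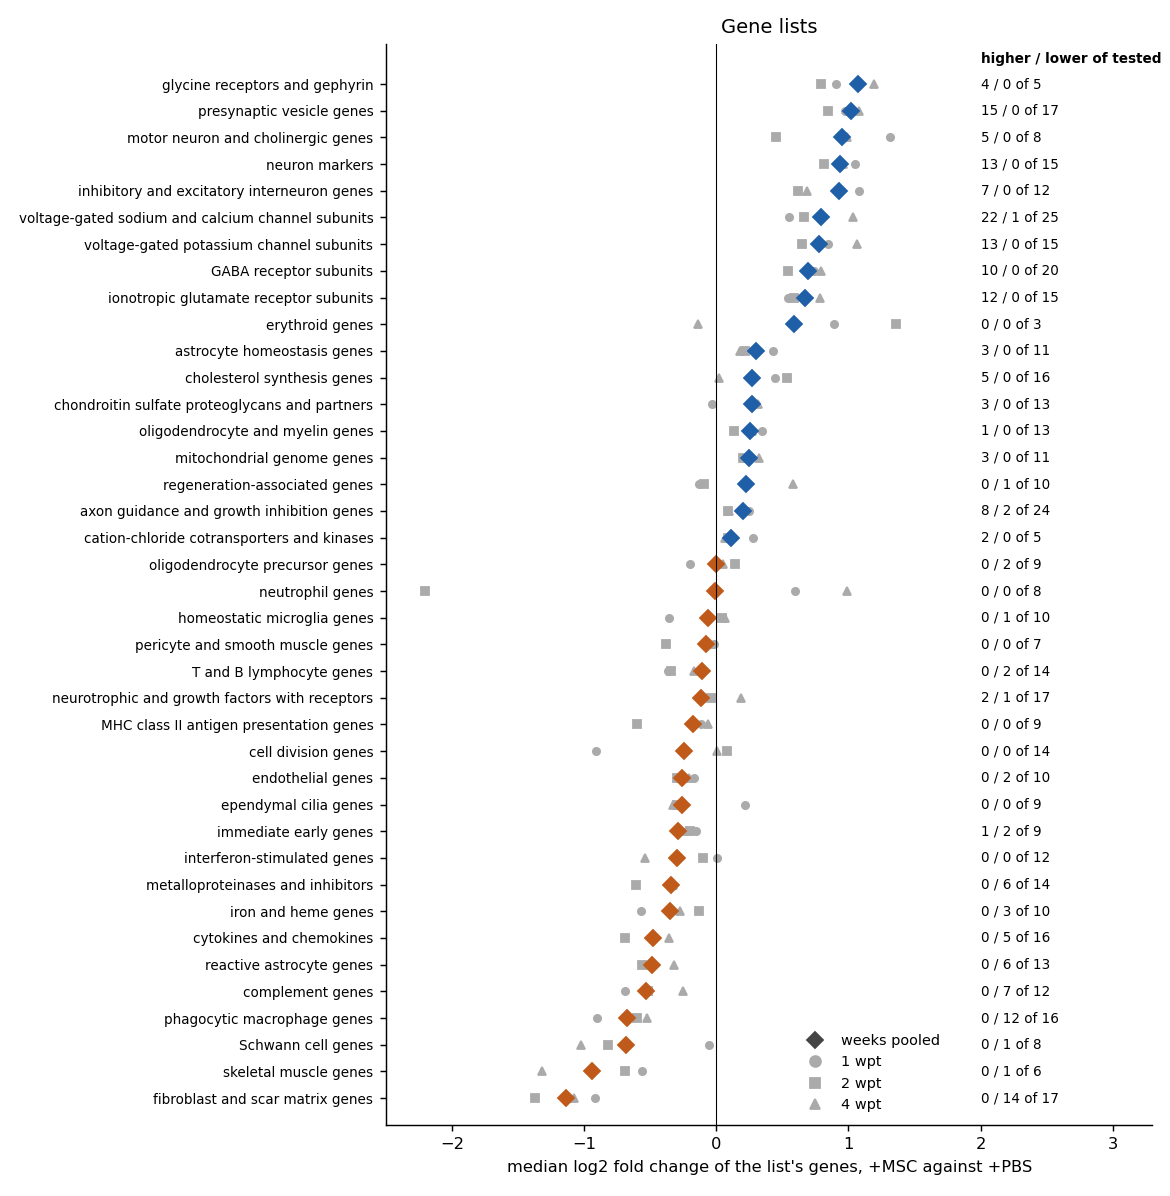
Median log2 fold change of +MSC over +PBS in 39 gene lists, pooled over weeks (diamonds) and at 1, 2 and 4 wpt (grey symbols), with the counts of genes called higher and lower of those tested. The presynaptic list is at 1.02, neuron markers at 0.93 and fibroblast and scar matrix genes at -1.14, beside -0.03 for all genes tested.

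Whether the pooled difference reverses the injury was examined with sub-SCI against Intact, which shares no library with the treatment comparison. In that contrast 5966 genes (33.7%) were called higher and 5632 (31.8%) lower, and as DEGs 2951 (16.7%) and 2915 (16.4%). Of the 2022 genes higher in +MSC, 1968 (97.3%) were called lower after injury, which is 34.9% of the injury list. Of the 2104 genes lower in +MSC, 1861 (88.5%) were called higher after injury, or 31.2% of that list. Of the 300 higher DEGs, 288 (96.0%) were DEGs lower after injury, and of the 156 lower DEGs, 112 (71.8%) were DEGs higher after injury. The other 12 and 44 were no DEGs after injury, and none was a DEG in the same direction.

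The size of the treatment difference followed the size of the injury difference. For 98 genes with injury log2 fold changes below -4 the median treatment log2 fold change was 1.26, and 52.0% were called higher. For 347 genes between -4 and -3 the median was 1.05, and 71.8% were called higher, so the share called did not rise steadily with the injury difference. For 10470 genes within 1 of no change the median was -0.03. For 320 genes with injury increases above 4 it was -0.68, and 46.6% were called lower. Across the 17722 genes Pearson's r was -0.71 and Spearman's rho -0.76, as a description only, since genes are not independent and the libraries of each comparison are shared by all genes.

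**Figure D4:**
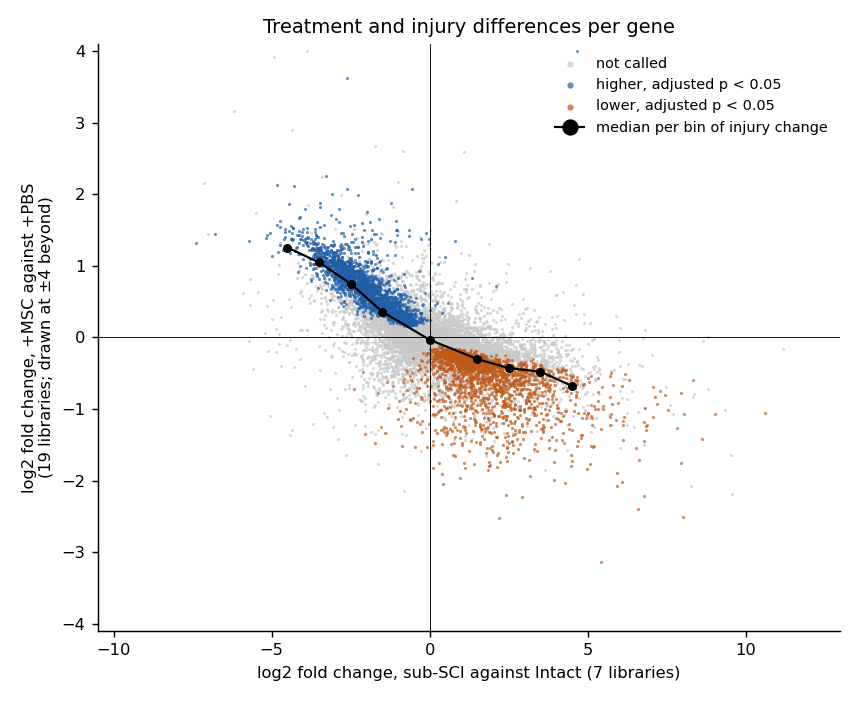
Log2 fold change of +MSC over +PBS (y axis) against that of sub-SCI over Intact (x axis) for 17722 genes, with values beyond 4 drawn at 4 and bin medians as points. The medians run from 1.26 in genes that injury lowered most to -0.68 in genes that it raised most.

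The DEGs were also set beside Intact. The 300 higher DEGs had a median mean log2(CPM + 1) difference from Intact of -2.02 in +PBS and -0.95 in +MSC, and 299 of them were still below Intact in +MSC. The 156 lower DEGs stood 2.1 above Intact in +PBS and 0.89 above in +MSC, with 152 still above Intact. The gap between +PBS and +MSC in these medians was fixed by the choice of DEGs, which differ by more than 1 on the log2 scale, and is a description.

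A few called genes moved in the same direction as after injury, 5 higher and 15 lower. Ptgds, which makes prostaglandin D2 and is abundant in the meninges, lay at 952 to 11409.9 CPM (median 4853) in +PBS and at 476 to 4592 CPM (median 2206) in +MSC, with an Intact mean of 1743 CPM and a sub-SCI mean of 408 CPM. Its log2 fold change was -1.35 ± 0.36 (adjusted p = 0.012) and ranged from -0.30 at 1 wpt to -2.84 at 2 wpt. It lost its call without week 2 and without week 4. Ppp1r1a, a phosphatase inhibitor (-0.99 ± 0.23), the potassium channels Kcnk2 and Kcnk16 and the transporter Slc16a12 were of the same kind. Among the 5 higher were Slc41a2 (0.35 ± 0.10) and Calcb (0.72 ± 0.23), a calcitonin gene-related peptide.

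The largest fold changes among called genes with a mean of at least 1 CPM rested on fewer libraries. AABR07044383.1, with a fitted log2 fold change of 8.08, was at 0 in 8 of 9 +PBS libraries and reached 4.64 to 8.08 CPM in 4 +MSC libraries, while 4 of the other 6 were at 0. It reached 9.87 and 12.5 CPM in 2 of the 3 sub-SCI libraries, so its fold change does not describe most of the +MSC libraries. Cxcl2, a neutrophil attractant (-2.53 ± 0.77), reached 14.3 CPM in +PBS-1w replicate 2 and at most 1.06 CPM in the other +PBS libraries. Cd300le (-2.22 ± 0.58) and Cd300c2 (-2.39 ± 0.76), receptors of myeloid cells, had weekly values from -0.54 to -5.45. Cxcl2 lost its call without any 1 of the 3 weeks and with DESeq2. The next increases after AABR07044383.1 were those of AABR07007916.1 (1.69), Col19a1 (1.67), Grifin (1.63) and Car7 (1.61).

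The common effect assumed that weeks do not differ. By the interaction of week and treatment 0 of 17722 genes (0%) passed an adjusted p under 0.05, with 433 at an unadjusted p under 0.05, and DESeq2 called 4. All 300 higher and all 156 lower DEGs had the same sign in each of the 3 weeks. Their median log2 fold changes were 1.15, 0.98 and 1.34 for the higher and -0.99, -1.70 and -1.10 for the lower at 1, 2 and 4 wpt. Because the DEGs were chosen on the pooled effect, this is a description. In a model of the 6 groups, week 1 alone gave 3 genes called higher and 11 lower, week 2 alone 0 and 2, and week 4 alone 367 and 77. Of the 4126 genes called by the pooled effect, 3681 were called in no single week.

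The smallest interaction p by edgeR belonged to Stil, a centriole gene (adjusted p = 1), which was also among the 4 genes called by DESeq2. Its log2 fold change went from -0.93 in week 1 to 0.40 in week 2 and 0.34 in week 4. The 14 cell division genes had list medians of -0.91, 0.08 and 0.00 in those weeks, and none was called in the pooled comparison by edgeR or DESeq2, with 2 at an unadjusted p under 0.05.

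Further list counts without +PBS-4w replicate 1, each to be read against the higher share of all genes called in that fit, were as follows. Called higher were 14 of the ionotropic glutamate receptor subunits, 23 of the sodium and calcium channel subunits, 15 of the potassium channel subunits and 16 of the presynaptic genes. Called lower were 8 of the complement genes, 8 of the reactive astrocyte genes, 15 of the fibroblast genes and 2 of the Schwann cell genes. Among the interferon-stimulated genes and the pericyte genes 1 each was called lower, and 1 lymphocyte gene and 1 metalloproteinase or inhibitor gene were called higher. The counts of the chloride transport, immediate early, precursor, homeostatic microglia, phagocytic, MHC class II, neutrophil, cytokine and cell division lists were equal in both fits.

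The counts depended on single libraries. With 1 library left out at a time the higher DEGs numbered 165 to 598 and the lower DEGs 38 to 334. The fewest came without +PBS-2w replicate 1 (165 and 38), where +PBS-2w replicate 2, near Intact in neuron markers, was the remaining +PBS library of that week, and the most without +PBS-4w replicate 1. Without +PBS-1w replicate 3 they numbered 189 and 44. Leaving out a whole week left 98 and 20 DEGs without week 1, 190 and 6 without week 2, and 0 and 3 without week 4, where 1409 genes were still called higher and 1046 lower. No gene called in the full set changed sign in any of these fits in which it was tested. The genes were chosen on the full set and these fits reuse most of its libraries, so this is a description.

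**Figure D5:**
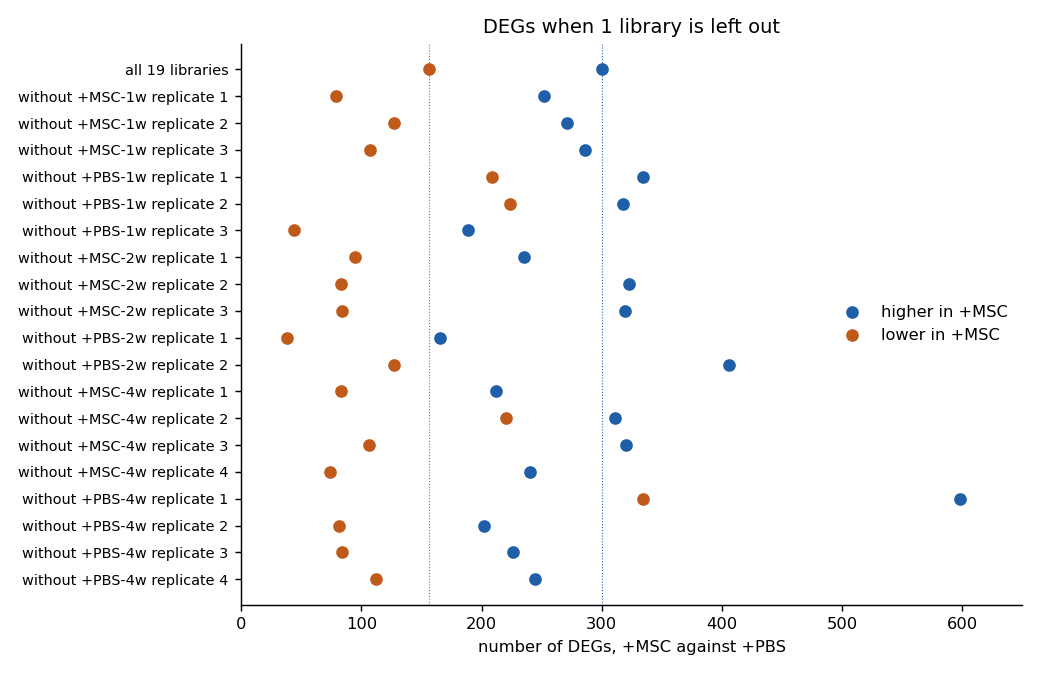
Number of higher and lower DEGs when each of the 19 libraries is left out in turn, beside the counts with all libraries, 300 and 156. The counts span 165 to 598 higher and 38 to 334 lower.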

How the data were processed

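RNA was sequenced from spinal cord segments as poly(A) libraries. The deposited table holds raw counts per rat gene, which the authors made with Trim Galore 0.5.0, HISAT2 2.1.0, SAMtools 1.9 and featureCounts 1.6.4, on rat build Rnor6 after removing reads that mapped to human GRCh38. The annotation release and the use of strand are not given in the sources used here, so reads of antisense or near-identical genes cannot be told apart. Groups came from the sample labels. The study's methods call the libraries of a group biological replicates, and the labels name no animals.

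Of 32883 genes, 17722 passed filterByExpr on the 6 groups of treatment and week. They were fitted with edgeR 4.0.16 (R 4.3.3) quasi-likelihood tests, TMM normalization and terms for week and treatment, and p-values were adjusted by Benjamini-Hochberg over all genes tested. Called genes had an adjusted p under 0.05. DEGs differed by more than 1 on the log2 scale with adjusted p below 0.01. The standard error was the absolute log2 fold change divided by the root of F. CPM used library sizes scaled by TMM over all 26 libraries. The interaction of week and treatment was an F test, and sub-SCI against Intact was fitted on its own 7 libraries.

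The members and the 39 gene lists (508 genes, 478 tested) were chosen with earlier results of these data known. Genes were named as the first 10 DEGs by adjusted p in each direction, up to 4 called genes per list with its best known genes, genes that the study or earlier results single out, those with the 5 smallest interaction p, the 5 that moved as after injury and the 5 largest fold changes with a mean of at least 1 CPM, in each direction. Other list members, and genes without an injury call, were named after their values were seen. Alternatives were DESeq2 1.42.0, other size factors and filters, other terms for week and replicate, and leaving out libraries or weeks. Leaving out +PBS-2w replicate 2 with +PBS-4w replicate 1, and summing +MSC-2w replicates 2 and 3, were chosen after seeing the data. The scripts were tested on simulated data. Some genes of these lists are not reported here.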

Additional observations from a re-analysis of the deposited data

Results flagged for a closer look

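Among 122 groups of gene values examined, 9 had 1 library far from the others of its treatment (Dixon's 95% limit), and chance alone gives about 1 in 20. In +PBS-2w replicate 2, a library near Intact in neuron markers, Scn1a was at 86.9 CPM (next 41.9), Cacng2 at 23.2 CPM (next 11.8) and Rasgrp1 at 7.62 CPM (next 5.33), each the highest of the +PBS libraries. In +PBS-4w replicate 1, the library with the length pattern, Gabrb2 was at 0.0745 CPM (next 1.24).

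The other flagged values were spread over libraries. Htr2b was at 3.09 CPM in +MSC-2w replicate 1 (next 5.44), Sfxn1 at 31.3 CPM in +MSC-4w replicate 3 (next 35.2) and Pycr1 at 1.06 CPM in +PBS-4w replicate 2 (next 2.06). Cxcl2 reached 14.3 CPM in +PBS-1w replicate 2 (next 1.06), and AABR07044383.1 was at 0.0400 CPM in +PBS-1w replicate 3 and at 0 in the other +PBS libraries. The causes were not tested.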

How the results depend on the processing

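The DEGs lower in +MSC numbered 156 and were 275 with DESeq2, 52 without the week term and 82 with +MSC-2w replicates 2 and 3 summed. Without week 1, week 2 or week 4 the counts were 98, 190 and 0 higher DEGs, 20, 6 and 3 lower DEGs, 891, 1112 and 1409 genes called higher and 814, 698 and 1046 called lower, with fewer libraries in each fit. Without the 2 +PBS libraries nearer Intact they were 719 and 308 DEGs and 3045 and 3065 called. With 1 library left out they ranged from 165 to 598 and 38 to 334 DEGs, and from 1455 to 3032 and 1310 to 3052 called. The lower DEGs fell below 100 without +MSC-1w replicate 1 (79), any +MSC-2w replicate (95, 83 and 84), +MSC-4w replicate 1 (83) or 4 (74), +PBS-4w replicate 2 (81) or 3 (84), besides the 2 libraries named in the report. Where 1 +PBS-2w library remained, it was assumed to vary like the other groups.

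The interaction called 0 genes, 4 with DESeq2, and 0 to 1 with a library left out. Genes opposite to injury numbered 3829, and 400 with the DEG thresholds. Those in the same direction numbered 20, 32 with DESeq2 and 0 with the DEG thresholds. Same-numbered libraries did not deviate together in every pair (correlations -0.19 to 0.34). At 4 wpt the correlations were 0.25, 0.34, 0.02 and 0.19 in order of replicate number, and +MSC-4w replicate 3 correlated best with +PBS-4w replicate 2. The week 2 values mirror each other because +PBS-2w held 2 libraries. Whether the numbers pair the libraries was not tested. With a replicate block by number the DEGs were 379 and 141, and by week and number 418 and 99. Of 149 named genes that were called, 70 kept the call in every alternative and 0 changed sign. The alternatives reuse all or most of the same libraries, so the kept signs are a description. The causes were not tested.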

Other observations

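Cholesterol synthesis, on which myelin depends, was low after injury and partly higher in +MSC. All 16 genes tested were called lower in sub-SCI against Intact and had a positive log2 fold change in +MSC, and 5 were called higher, among them Sc5d (0.41), Fdps (0.41), Insig1 and Hmgcs1. The count was 9 without +PBS-4w replicate 1, 9 without week 4, 1 without week 1 and 0 without week 2. The list medians were 0.44, 0.53 and 0.02 at 1, 2 and 4 wpt. Among 24 axon guidance and growth inhibition genes 8 were called higher, among them Slit1 (0.98), Unc5a (0.95), Lingo1 (0.66) and Efna5 (1.01), and Sema3c (-0.58) and Ntn1 (-0.81) lower. Without +PBS-4w replicate 1 the counts were 9 and 5, and 5 were called higher without any 1 of +MSC-1w replicate 2 or 3, +PBS-1w replicate 3 or +MSC-4w replicate 1. Without week 1, week 2 or week 4 the higher count was 3, 4 and 3.

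Of 10 iron and heme genes 3 were called lower, Ftl1 (-0.92), Slc11a1 (-0.78) and Blvrb (-0.35), and 1 of 10 regeneration-associated genes, Gadd45a (-0.33). Blvrb lost its call in 19 of 35 alternatives and Gadd45a in 18. Without +PBS-4w replicate 1 the iron count was 2 lower and the regeneration count 2 higher and 2 lower, and such counts are near the share of all genes called. Of 11 genes of the mitochondrial genome 3 were called higher, Mt-nd2 (0.40), Mt-nd4 (0.45) and Mt-nd1 (0.34), 7 without +PBS-4w replicate 1, 1 without +MSC-4w replicate 4 and 0 without week 1. Tnnt3 (-1.17) was the 1 of 6 skeletal muscle genes called lower, and 2 were without +PBS-4w replicate 1. None of 9 ependymal genes or 3 erythroid genes was called by edgeR, with 4 and 0 at an unadjusted p under 0.05 and 1 and 0 called by DESeq2.

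Some called genes had no call after injury and were chosen after their values were seen. Cdkn1c, a cell cycle inhibitor, lay at 34.7 to 117 CPM (median 62.7) in +PBS and at 25.5 to 42.5 CPM (median 33.6) in +MSC (-0.80, adjusted p = 0.0011 by edgeR). Hspb2 (-0.84) and Ephx1 (-0.77) were lower too. Mir138-2 lay at 0 to 0.280 CPM in +PBS and at 0.250 to 0.876 CPM in +MSC (1.75), levels at which few reads decide the value in libraries selected for poly(A) RNA.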
